A study of Mus musculus with 12 samples.

Results

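Whole mouse lung holds RNA of cardiac muscle, and 34 genes of that muscle were followed here across 12 expression arrays, 1 RNA sample on each. They were chosen by name, as contractile, calcium-handling, hormone and energy genes of heart muscle, with earlier results of these data known. The counts of calls below therefore do not come from a list drawn up independently of these data. For each gene, 1 probe set was kept: of those that the platform annotation gives to a single symbol, the one highest in mean log2 signal. All 34 genes were found, out of 18193 genes with such a probe set. They were sorted into 4 atrial genes (Myl4, Myl7, Nppa and Sln), 3 ventricular genes (Myl2, Myl3 and Myh7), 14 genes shared by both kinds of heart chamber, and 13 genes shared with skeletal muscle.

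The arrays fall into 4 groups of 3. Lungs came from wild-type Balb/c mice, or from mice labelled PPTA knockout whose strain the labels do not give, so strain and genotype cannot be told apart. PPTA, now called Tac1, encodes the precursor of substance P. All mice were 8 to 10 weeks old and were sampled 8 h after either a sham operation or cecal ligation and puncture (CLP), in which the bowel is tied off and pierced so that sepsis follows. The labels name triplicates without saying whether they were separate animals, so a p-value here speaks only for the spread between these samples, and some of that spread may be technical. The labels do not say how the knockout allele was made.

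In mice, cardiac muscle does not end at the left atrium. Sleeves of heart muscle cells of atrial type run along the pulmonary veins into the lung, where they wrap the vein wall outside its smooth muscle. These cells build the same sarcomere as the atrium: thin filaments of cardiac actin with troponin and tropomyosin, thick filaments of myosin with its light chains, titin spanning between them, and Z-discs at either end. Calcium released from the sarcoplasmic reticulum through the ryanodine receptor binds troponin and starts contraction, and the pump that takes it up again is held in check by phospholamban and sarcolipin. In human hearts, pulmonary vein sleeves are known as a source of the extra beats that set off atrial fibrillation.

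The genotype label was checked first, and it did not hold for the Tac1 transcript. The brighter of its probe sets had signals of 2.80 to 16.1 across 6 arrays of wild-type lung, against 337 to 530.3 across the 6 labelled knockout. Since no source used here says which part of the gene was removed, the groups are called knockout-labelled throughout, and every direction between them rests on that label. Array medians ran from 31.1 to 38.4 signal units. The lowest correlation between an array and another of its group was 0.937 in the knockout-labelled sham group and 0.952 in the knockout-labelled CLP group, against 0.983 and 0.985 among the wild type.

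The label of the gene group was then set against its own markers. The atrial light chains Myl4 and Myl7 and the atrial calcium pump inhibitor Sln were above the array median on all 12 arrays. Myl2, the regulatory light chain of the ventricle, was above it on none, and its signals ran from 0.742 to 28.2. Of 18 genes of fast skeletal muscle, 14 were below the filter described next, Myh1, Myh2, Myh4 and Tnnt3 among them. The fourth atrial gene, Nppa, was above the median on 9 arrays, and the other ventricular genes, Myh7 and Myl3, were above it on all 12. Atrial and ventricular genes were thus both read, and of these 7 genes Myl2 alone was above the median on no array. An array of whole lung holds no position, so whether the RNA came from vein sleeves inside the lung or from atrial muscle at its root cannot be told apart.

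The filter asked for a signal over the median of the array on 3 or more of the 12 arrays, and 32 of the 34 genes passed it. Myl2 passed on no array and Corin on 2, both of them knockout-labelled sham arrays. Trdn passed only through the knockout-labelled sham group, so its difference from the other groups was in part required by the filter. Casq2 was above the median on 6 arrays, all of them knockout-labelled. Its differences from the wild type were thus in part required by the filter. Differences are log2 of the signal plus 3.47, with the standard error of the model, and are called at a limma adjusted p under 0.05 over all 24574 probe sets tested.

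The DNA just before the start site is shown for 6 of these genes, each with a motif of a factor known from muscle. A CArG box, the site named for serum response factor, was found within 250 bases before a start site in 8 of 41 windows, from 6 genes: Actc1, Fhl2, Ldb3, Myl3, Myl7 and Nebl. That is 19.5% of the windows, against 1.47% of all 32851 windows in the table. The site of MEF2 was found in 5 windows (12.2%), from Casq2, Fhl2, Mybpc3, Myoz2 and Ttn, against 2.92% of all. Windows were at hand for 30 of the 34 genes, a gene with several start sites has several windows, and both strands were searched. Other motifs were searched in the same way. The letters TATAAA were found in 4 of the 41 windows (9.76%), against 12.4% of all. AGATAA, a site named for the zinc finger factors Gata4 and its relatives, was found in 8 (19.5%), against 9.99% of all. A MEF2 site can hold the letters TATAAA, so those searches can overlap. The 3 sequences with a CArG box in capitals come from Actc1 at chr2:114052876-114053025 on the minus strand, Myl7 at chr11:5898783-5898932 on the minus strand and Myl3 at chr9:110763528-110763677 on the plus strand. The 3 with a MEF2 site in capitals come from Mybpc3 at chr2:91117994-91118143 on the plus strand, Casq2 at chr3:102086265-102086414 on the plus strand and Myoz2 at chr3:123034988-123035137 on the minus strand. Each runs 150 bases, 5′ to 3′, and ends at the last base before the RefSeq start site (build GRCm38.p6).
Actc1: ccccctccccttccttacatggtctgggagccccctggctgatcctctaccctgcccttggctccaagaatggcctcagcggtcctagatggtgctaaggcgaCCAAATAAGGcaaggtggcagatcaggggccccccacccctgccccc
Myl7: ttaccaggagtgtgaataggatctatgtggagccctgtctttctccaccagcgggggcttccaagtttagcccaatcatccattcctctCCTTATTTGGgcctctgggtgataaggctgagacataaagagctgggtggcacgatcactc
Myl3: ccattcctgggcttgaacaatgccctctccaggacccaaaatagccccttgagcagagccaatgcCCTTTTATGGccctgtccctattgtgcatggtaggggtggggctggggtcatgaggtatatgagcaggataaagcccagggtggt
Mybpc3: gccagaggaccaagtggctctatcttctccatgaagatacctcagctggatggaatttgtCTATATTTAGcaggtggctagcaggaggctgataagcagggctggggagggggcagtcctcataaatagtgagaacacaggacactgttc
Casq2: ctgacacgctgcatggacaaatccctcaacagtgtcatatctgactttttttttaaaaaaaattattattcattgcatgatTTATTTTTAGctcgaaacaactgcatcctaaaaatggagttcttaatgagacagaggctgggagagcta
Myoz2: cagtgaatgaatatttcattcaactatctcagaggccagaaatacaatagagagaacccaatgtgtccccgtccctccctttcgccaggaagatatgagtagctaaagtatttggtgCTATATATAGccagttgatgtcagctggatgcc
The capitals begin 47 bases before the start in Actc1, 61 in Myl7, 85 in Myl3, 90 in Mybpc3, 69 in Casq2 and 33 in Myoz2. A match is a description of the letters only. Nebl holds a CArG box and was called in no comparison, whereas Tnnt2 and Myh6 hold neither motif in these windows and were called in both comparisons of the knockout-labelled sham group. Whether the motifs bear on the differences was not tested.

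No change of these genes was called in wild-type lungs after CLP. With limma, 0 of the 32 tested genes were called between wild-type CLP and sham, and 0 had an unadjusted p under 0.05; 0.948% of all probe sets tested were called in this comparison. No gene had arrays of the 2 surgeries that did not overlap, against 9.35% of all probe sets with CLP higher and 15% with CLP lower. The median difference was -0.06, against -0.05 over all probe sets, and single genes ran from -0.33 (Pln) to 0.19 (Casq2). The count was 0 in every alternative fit as well, including each of the 12 fits that left out 1 array.

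After CLP, 29 of the 32 genes fell in knockout-labelled lungs and 0 rose, where 18.8% of all probe sets tested fell and 10.4% rose. The 3 arrays of each surgery did not overlap for 26 genes, all lower after CLP, against 23.1% of all probe sets. The median difference was -0.95, against -0.12 over all probe sets, and it ran from -1.54 for Ttn, the titin gene, to -0.24 for Nebl. The genes not called were Myl3, Nppa and Nebl. The 29 include Trdn, whose fall was in part required by the filter. All 32 values were below 0, and 31 had an unadjusted p under 0.05. In bulk tissue, fewer cells of a type and less RNA per cell cannot be told apart. This count depended on the sample set: it was 9 when the model held only these 6 arrays, 18 when the second knockout-labelled sham array was left out, and 19 when each array was centred on its median. That centring moved the median of all probe sets from -0.12 to 0.10 and the share of rises among all calls from 35.6% to 70.4%, and moved the median of these genes from -0.95 to -0.73.

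Already after the sham operation, 28 of the 32 genes were higher in the knockout-labelled lungs and 0 lower, where 4.48% of all probe sets tested were higher and 3.86% lower, 8.34% in all. The same number, 28, had all 3 knockout-labelled arrays above all 3 wild-type arrays, against 15.3% of all probe sets. The median difference was 1.33, against 0.01 over all probe sets, and the range ran from -0.74 (Nppa) to 2.58 (Actc1). The genes not called were Myh7, Nppa, Nebl and Fhl2. The 28 include Trdn and Casq2, whose differences were in part required by the filter. Left out in turn, the arrays gave 20 to 28 calls, with 20 when the third wild-type sham array was missing. Centring on medians changed the share of rises among all calls of this comparison from 53.7% to 39.1% and left 23 of these genes called. The fall after CLP and the sham difference both use the knockout-labelled sham arrays, so they are not independent of each other.

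**Figure D1:**
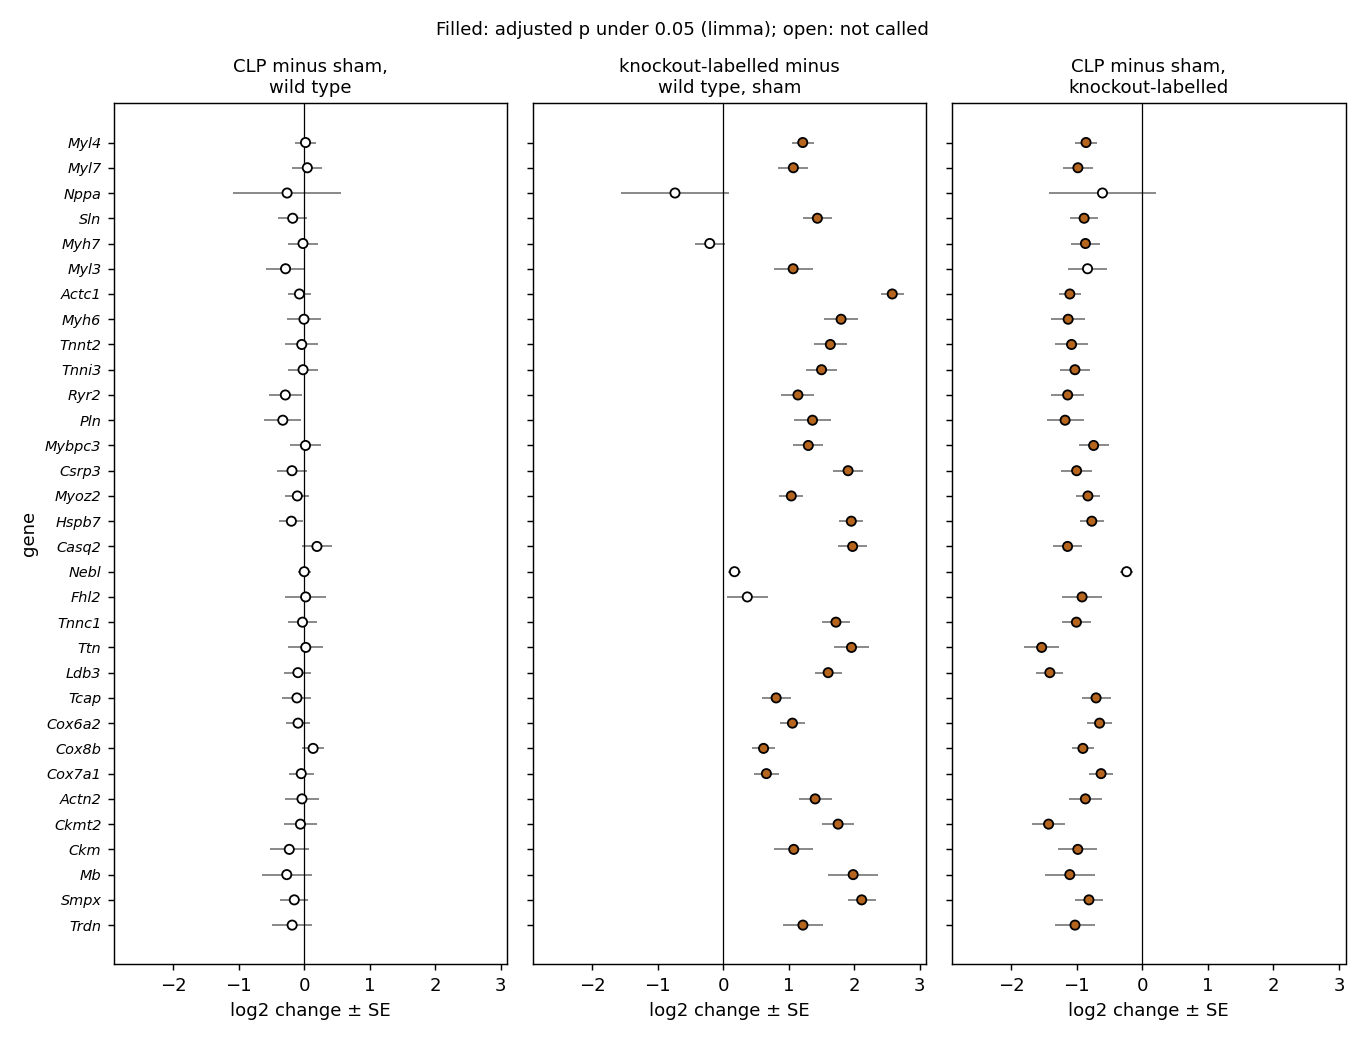
Log2 difference of each of the 32 tested genes, in rows from atrial and ventricular genes to those shared with skeletal muscle, in 3 panels for the wild-type response, the sham comparison and the knockout-labelled response, with bars of 1 standard error and filled points for genes called at a limma adjusted p under 0.05. All wild-type points lie near 0 and are open, 29 points of the knockout-labelled response are filled below 0, and 28 points of the sham comparison are filled above 0.

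The calls were then counted by class. Of all probe sets tested, 18.8% fell after CLP in the knockout-labelled lungs and 4.48% were higher in the sham comparison. Over all classes, 7 of the 29 falls and 17 of the 28 higher calls held in every alternative fit. Of the 13 tested genes shared by atrium and ventricle, 12 fell after CLP in the knockout-labelled lungs and 11 were higher in the sham comparison. Casq2, which passed the filter only through knockout-labelled arrays, is among the 11. Of the 13 genes shared with skeletal muscle, all 13 fell and all 13 were higher. Trdn, which passed the filter only through the knockout-labelled sham group, is among these 13. Among the 4 atrial genes 3 fell and 3 were higher, and of the 2 tested ventricular genes Myh7 fell and Myl3 was higher. Neither of these ventricular genes was called in both comparisons.

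The thin filament is where calcium switches contraction on. Actc1, cardiac alpha-actin and the main actin of heart muscle, stood furthest apart. Actc1 read 465, 523 and 459 on the wild-type sham arrays and 450.0, 438 and 486 after CLP. Actc1 read 2813, 3675 and 2342 on the knockout-labelled sham arrays and 1062, 1350.2 and 1688 after CLP. All 6 knockout-labelled arrays lay above all 6 wild-type arrays, and the sham arrays above the CLP arrays. The sham difference was 2.58 ± 0.17 (adjusted p = 1.3e-06), a 5.97-fold difference on this scale, and the fall after CLP was -1.11 ± 0.17 (adjusted p = 8.6e-04).

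The troponins followed. Tnnt2, the gene of the subunit that ties troponin to tropomyosin, read 450.1, 425 and 369 on the wild-type sham arrays and 383, 371 and 459.8 after CLP. Tnnt2 read 1232, 1825 and 954 on the knockout-labelled sham arrays and 449, 541 and 926 after CLP. The 3 knockout-labelled sham arrays were above all 9 others, and the CLP arrays reached into the wild-type range. Tnnt2 was 1.63 ± 0.25 higher after sham (adjusted p = 0.0015) and fell by 1.08 ± 0.25 after CLP (adjusted p = 0.0080). Tnni3, the gene of the cardiac inhibitory subunit, read 218, 253 and 207 on the wild-type sham arrays and 205, 211 and 254 after CLP. Tnni3 read 560.3, 850.3 and 558 on the knockout-labelled sham arrays and 216, 318 and 448 after CLP. Again the sham arrays were above the 9 others, and 1 CLP array lay at the wild-type level. The differences of Tnni3 were 1.4996 ± 0.23 in the sham comparison (adjusted p = 0.0015) and -1.03 ± 0.23 after CLP (adjusted p = 0.0065). Tnnc1, the calcium-binding subunit of cardiac and slow skeletal muscle, read 306, 314 and 303 on the wild-type sham arrays and 282, 267 and 366 after CLP. Tnnc1 read 924, 1462 and 788 on the knockout-labelled sham arrays and 394, 531 and 621 after CLP. All 6 knockout-labelled arrays were above the 6 wild-type arrays. Tnnc1 was 1.72 ± 0.22 higher after sham (adjusted p = 2.8e-04) and fell by 1.01 ± 0.22 after CLP (adjusted p = 0.0049).

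Nebl was the exception in this group. It encodes nebulette, a cardiac protein of the thin filament near the Z-disc, and also a form found outside muscle. Its wild-type signals ran from 1244 to 1499 and its knockout-labelled signals from 1258 to 1768. The sham difference was 0.17 ± 0.10 (adjusted p = 0.32) and the difference after CLP -0.24 ± 0.10 (adjusted p = 0.079), although the knockout-labelled CLP arrays lay below the sham arrays without overlap. A further 2 probe sets of Nebl were tested and neither was called.

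The thick filament carries the motor. Myh6, the gene of alpha myosin heavy chain, the main motor of the adult mouse heart, read 695, 715 and 517 on the wild-type sham arrays and 601, 616 and 689 after CLP. Myh6 read 1817, 2889 and 2079.9 on the knockout-labelled sham arrays and 714, 865 and 1672 after CLP. The sham arrays of the knockout-labelled group were above all 9 others. Myh6 was 1.80 ± 0.26 higher after sham (adjusted p = 9.0e-04) and fell by 1.13 ± 0.26 after CLP (adjusted p = 0.0073). It is a close paralogue and chromosomal neighbour of Myh7, and probe sets that the annotation gives to both genes were not used.

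Myh7 was not called in the sham comparison. It encodes beta myosin heavy chain, the motor of the fetal ventricle and of slow skeletal muscle. Myh7 read 415, 445 and 519.7 on the wild-type sham arrays and 462, 486 and 412 after CLP. Myh7 read 422, 467 and 316 on the knockout-labelled sham arrays and 281, 255 and 139 after CLP. In the sham groups the arrays overlapped, and the 3 knockout-labelled CLP arrays were the lowest of the 12. The sham difference of Myh7 was -0.21 ± 0.23 (adjusted p = 0.64), and it fell by 0.87 ± 0.23 after CLP (adjusted p = 0.013). Without the second knockout-labelled sham array that fall was no longer called (adjusted p = 0.054). Against wild-type CLP, Myh7 was lower, with a difference of -1.06 ± 0.23 (adjusted p = 0.0046).

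The light chains separate atrium from ventricle. Myl7, the atrial regulatory chain, read 915, 989 and 856 on the wild-type sham arrays and 829.6, 869.7 and 1185 after CLP. Myl7 read 1535, 2689 and 1743 on the knockout-labelled sham arrays and 755, 903 and 1358 after CLP. Only the knockout-labelled sham arrays stood apart, above the other 9, while the CLP arrays spanned the wild-type range. Myl7 was 1.07 ± 0.23 higher after sham (adjusted p = 0.012; adjusted p = 0.054 without the third wild-type sham array) and fell by 0.98 ± 0.23 after CLP (adjusted p = 0.0075). Myl4, the atrial essential chain, read 720.3, 809 and 728 on the wild-type sham arrays and 728, 752 and 808 after CLP. Myl4 read 1648, 2228 and 1449.8 on the knockout-labelled sham arrays and 767, 963 and 1202 after CLP. The same 3 sham arrays were the highest. Myl4 was 1.21 ± 0.17 higher after sham (adjusted p = 5.6e-04) and fell by 0.86 ± 0.17 after CLP (adjusted p = 0.0028); averaged with a second, dim probe set it was called in neither comparison.

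Of the ventricular light chains only Myl3 could be tested. Myl3, the essential chain of the ventricle and of slow skeletal muscle, read 79.0, 100.5 and 93.9 on the wild-type sham arrays and 78.3, 56.4 and 91.0 after CLP. Myl3 read 187, 244 and 159 on the knockout-labelled sham arrays and 63.7, 109.9 and 173 after CLP. The knockout-labelled sham arrays were above the wild-type arrays, and the CLP arrays ran from below the wild-type mean to within the sham range. Myl3 was 1.07 ± 0.30 higher after sham (adjusted p = 0.045), a call kept in 3 of the 12 fits with 1 array left out and lost with adjusted p = 0.15 without the first wild-type sham array. After CLP it differed by -0.84 ± 0.30 (adjusted p = 0.051) and was not called. Myl2 read 7.61, 10.2 and 17.0 on the wild-type sham arrays and 13.4, 28.2 and 16.0 after CLP. Myl2 read 6.17, 4.003 and 9.84 on the knockout-labelled sham arrays and 2.57, 0.742 and 12.5 after CLP. These signals are all under the array medians, so they carry no test and no direction is read from them.

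Mybpc3 and Ttn complete the filament. Mybpc3, the gene of cardiac myosin-binding protein C, which steadies the cross-bridges, read 38.7, 35.3 and 39.3 on the wild-type sham arrays and 41.8, 36.7 and 36.6 after CLP. Mybpc3 read 90.9, 121 and 85.2 on the knockout-labelled sham arrays and 49.3, 43.8 and 85.4 after CLP. All 6 knockout-labelled arrays were above the wild-type arrays, but the third CLP array lay within the sham range. Mybpc3 was 1.30 ± 0.23 higher after sham (adjusted p = 0.0038) and fell by 0.74 ± 0.23 after CLP (adjusted p = 0.029), a call kept in 8 of 12 fits with an array left out and lost with adjusted p = 0.12 without the second knockout-labelled CLP array. Ttn, the giant spring between Z-disc and M-line, read 161, 127 and 99.2 on the wild-type sham arrays and 128, 148 and 113 after CLP. Ttn read 531, 632 and 376 on the knockout-labelled sham arrays and 120.2, 160.0 and 258 after CLP. Here the CLP arrays overlapped the wild-type arrays and the sham arrays were above all others. Ttn was 1.96 ± 0.27 higher after sham (adjusted p = 5.5e-04) and fell by 1.54 ± 0.27 after CLP (adjusted p = 0.0016).

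**Figure D2:**
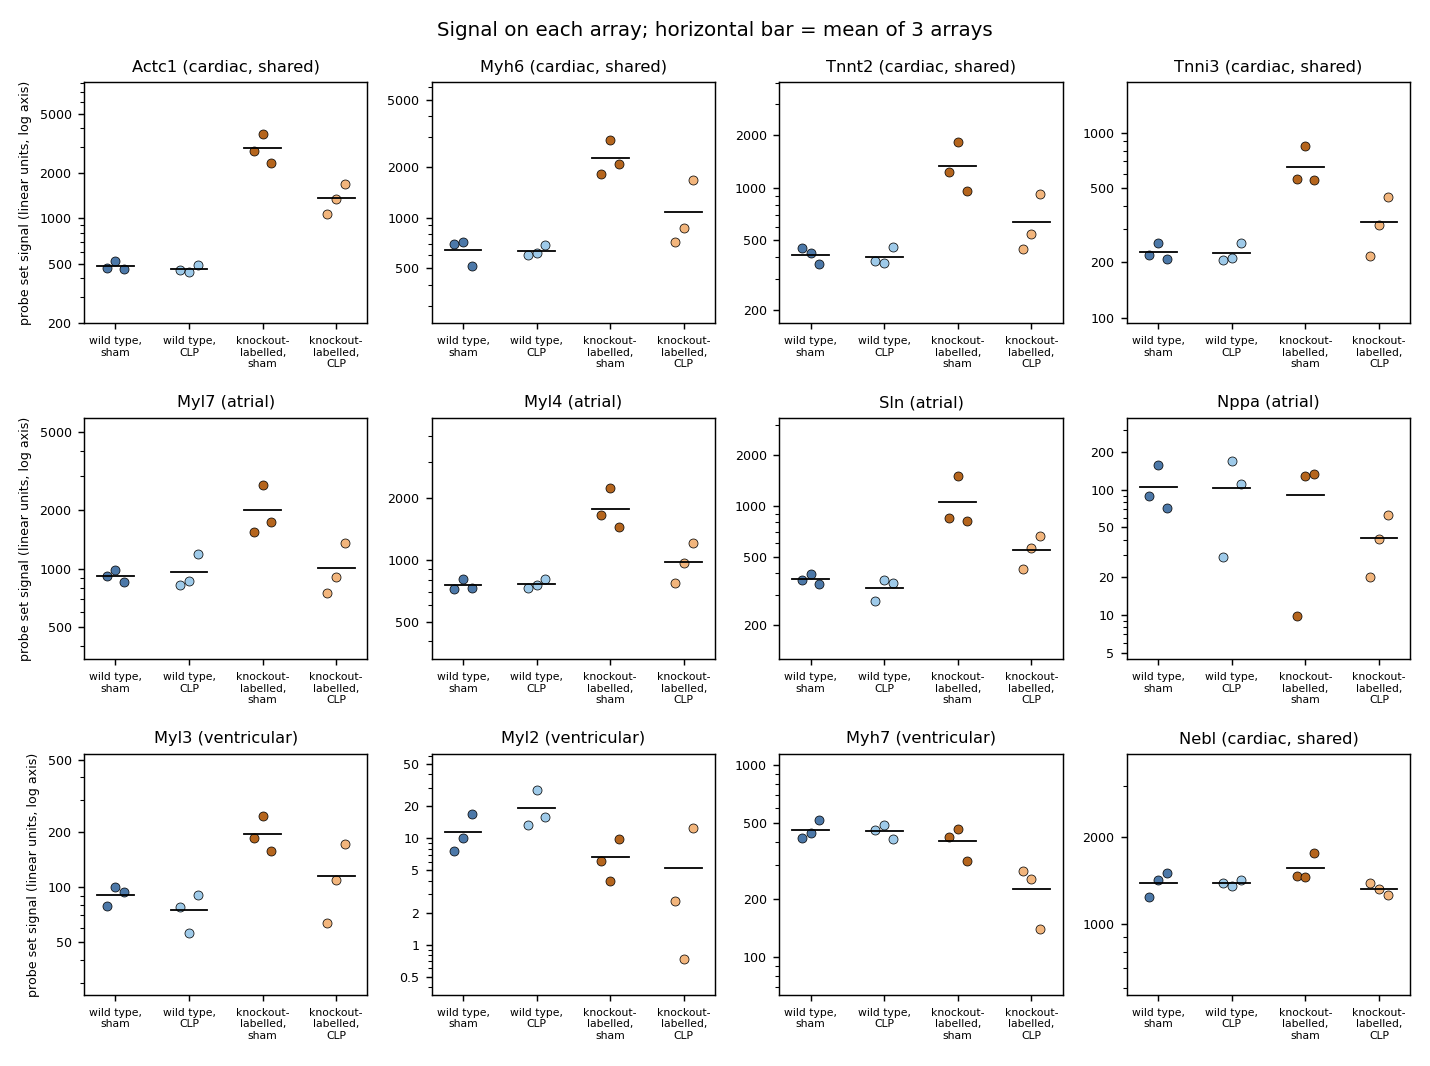
Signal of 12 genes on each of the 12 arrays, on a log axis in linear signal units, with 1 point per array and a bar for the mean of the 3 arrays of a group. Actc1, Myh6, the troponins Tnnt2 and Tnni3, Myl7, Myl4, Sln and Myl3 are highest in the knockout-labelled sham group, whereas Nppa and Myh7 are not. The groups of Nebl lie close together, and Myl2 is under the median of every array.

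The Z-disc anchors the filaments and hosts stretch and stress sensors. Of its 8 tested genes all 8 fell after CLP in the knockout-labelled lungs and 7 were higher in the sham comparison. Of all probe sets, 18.8% fell and 4.48% were higher. Ldb3, the gene of the adaptor ZASP, read 39.7, 37.2 and 29.8 on the wild-type sham arrays and 36.0, 26.7 and 36.7 after CLP. Ldb3 read 95.9, 129 and 120.3 on the knockout-labelled sham arrays and 33.9, 40.6 and 49.1 after CLP. The sham arrays of the knockout-labelled group were above all others, and the CLP arrays overlapped the wild type. Ldb3 was 1.60 ± 0.20 higher after sham (adjusted p = 3.3e-04) and fell by 1.41 ± 0.20 after CLP (adjusted p = 5.9e-04). Actn2, the gene of sarcomeric alpha-actinin, which crosslinks actin, read 64.8, 65.4 and 47.0 on the wild-type sham arrays and 56.2, 59.6 and 55.3 after CLP. Actn2 read 160.2, 186 and 138 on the knockout-labelled sham arrays and 58.6, 78.8 and 137 after CLP. The third CLP array all but reached the lowest sham array. Actn2 was 1.40 ± 0.25 higher after sham (adjusted p = 0.0041) and fell by 0.87 ± 0.25 after CLP (adjusted p = 0.022), no longer called without the second sham array (adjusted p = 0.080).

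Among Z-disc genes, Csrp3, Hspb7 and Smpx were above the wild type after CLP as well. Csrp3, the gene of muscle LIM protein, a stretch sensor, read 158, 172 and 133 on the wild-type sham arrays and 138, 140.1 and 125 after CLP. Csrp3 read 472, 799.9 and 528 on the knockout-labelled sham arrays and 198, 324 and 379.7 after CLP. Hspb7, a small heat shock protein of heart, read 58.1, 59.9 and 48.8 on the wild-type sham arrays and 50.6, 45.3 and 48.1 after CLP. All 6 knockout-labelled arrays were above all 6 wild-type arrays for Csrp3, and the same held for Hspb7. Hspb7 read 262, 249.5 and 173 on the knockout-labelled sham arrays and 157, 112 and 125 after CLP. Smpx, a small muscle protein, read 65.8, 86.7 and 61.3 on the wild-type sham arrays and 56.5, 62.0 and 71.9 after CLP. Smpx read 255, 398 and 311 on the knockout-labelled sham arrays and 133, 197 and 216 after CLP. The groups did not overlap for Smpx either. In the sham comparison Csrp3 was 1.90 ± 0.23 higher (adjusted p = 2.3e-04), Hspb7 1.95 ± 0.18 (adjusted p = 2.5e-05) and Smpx 2.11 ± 0.21 (adjusted p = 4.9e-05). After CLP Csrp3 fell by 1.002 ± 0.23 (adjusted p = 0.0075), Hspb7 by 0.77 ± 0.18 (adjusted p = 0.0079) and Smpx by 0.81 ± 0.21 (adjusted p = 0.013; adjusted p = 0.059 without the second sham array). In these 3 genes the signals fell after CLP and were still above the wild type.

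The other Z-disc genes were Myoz2, Tcap and Fhl2. Myoz2, the gene of calsarcin-1, which holds the phosphatase calcineurin at the Z-disc, read 132, 142 and 142 on the wild-type sham arrays and 140.5, 114 and 133 after CLP. Myoz2 read 257, 357 and 261 on the knockout-labelled sham arrays and 123, 163 and 206 after CLP. The sham arrays were above all others. Myoz2 was 1.04 ± 0.18 higher after sham (adjusted p = 0.0038) and fell by 0.83 ± 0.18 after CLP (adjusted p = 0.0058). Tcap, the gene of telethonin, the cap of titin, read 163, 186 and 164 on the wild-type sham arrays and 166, 149 and 157 after CLP. Tcap read 223, 361 and 337 on the knockout-labelled sham arrays and 132, 179 and 258 after CLP. The highest CLP array lay within the sham range. Tcap was 0.81 ± 0.22 higher after sham (adjusted p = 0.041) and fell by 0.71 ± 0.22 after CLP (adjusted p = 0.031). The sham call was kept in 3 of 12 fits with an array left out (adjusted p = 0.13 without the third wild-type sham array) and the fall in 8 (adjusted p = 0.11 without the second knockout-labelled sham array). Fhl2, a LIM protein of heart that other cells also make, read 45.8, 102 and 79.5 on the wild-type sham arrays and 76.7, 81.8 and 62.8 after CLP. Fhl2 read 90.5, 148 and 61.8 on the knockout-labelled sham arrays and 42.3, 57.7 and 45.5 after CLP. The sham groups overlapped, and the CLP arrays of the knockout-labelled group were lower than all wild-type CLP arrays. Fhl2 differed by 0.37 ± 0.31 after sham (adjusted p = 0.53) and fell by 0.92 ± 0.31 after CLP (adjusted p = 0.042), a call kept in 3 of 12 fits (adjusted p = 0.17 without the second sham array).

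Calcium handling held 5 tested genes, and all 5 fell after CLP in the knockout-labelled lungs and all 5 were higher in the sham comparison. Of all probe sets, 18.8% fell and 4.48% were higher. Trdn, 1 of the 5, passed the filter only through the knockout-labelled sham group, so its calls were in part required by the filter. Casq2 passed it only through knockout-labelled arrays, so its sham call was in part required as well. Sln encodes sarcolipin, the atrial inhibitor of the calcium pump. Sln read 366, 399 and 348 on the wild-type sham arrays and 275, 366 and 349.9 after CLP. Sln read 844, 1491 and 816 on the knockout-labelled sham arrays and 427, 566 and 664 after CLP. All 6 knockout-labelled arrays were above all 6 wild-type arrays. Sln was 1.44 ± 0.22 higher after sham (adjusted p = 0.0013) and fell by 0.89 ± 0.22 after CLP (adjusted p = 0.0100); averaged with a second probe set that was above the median on no array, neither call held. Pln, the gene of phospholamban, the pump inhibitor of the ventricle, read 89.6, 92.1 and 62.5 on the wild-type sham arrays and 63.2, 60.6 and 66.3 after CLP. Pln read 188, 336 and 149.7 on the knockout-labelled sham arrays and 67.5, 89.9 and 126 after CLP. The sham arrays were above all others. The CLP arrays were above wild-type CLP, the first of them by little. Pln was 1.36 ± 0.28 higher after sham (adjusted p = 0.0097; adjusted p = 0.053 without the third wild-type sham array) and fell by 1.18 ± 0.28 after CLP (adjusted p = 0.0084).

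The genes of calcium release and storage showed the same directions. Ryr2, the gene of the cardiac ryanodine receptor, read 42.7, 54.1 and 54.8 on the wild-type sham arrays and 32.7, 34.6 and 58.5 after CLP. Ryr2 read 105, 148 and 97.2 on the knockout-labelled sham arrays and 37.7, 59.5 and 56.4 after CLP. Its sham arrays in the knockout-labelled group were above the other 9. Ryr2 was 1.14 ± 0.25 higher after sham (adjusted p = 0.015; adjusted p = 0.066 without the first wild-type sham array) and fell by 1.14 ± 0.25 after CLP (adjusted p = 0.0057); averaged with a dim second probe set neither call held. Casq2, the gene of cardiac calsequestrin, which stores calcium in the reticulum, read 32.1, 28.3 and 21.1 on the wild-type sham arrays and 30.5, 31.0 and 31.9 after CLP. Casq2 read 99.6, 149.5 and 103 on the knockout-labelled sham arrays and 39.7, 52.1 and 61.9 after CLP. All knockout-labelled arrays lay above all wild-type arrays. For Casq2 the 6 knockout-labelled arrays were above their medians and all wild-type arrays below. Its differences between the genotype labels were thus in part required by the filter. Casq2 was 1.97 ± 0.22 higher after sham (adjusted p = 1.3e-04) and fell by 1.14 ± 0.22 after CLP (adjusted p = 0.0029). Trdn, the gene of triadin, which links calsequestrin to the receptor, read 17.4, 30.6 and 14.3 on the wild-type sham arrays and 16.5, 18.9 and 15.8 after CLP. Trdn read 42.1, 66.2 and 46.2 on the knockout-labelled sham arrays and 17.1, 21.9 and 32.2 after CLP. The knockout-labelled sham arrays were above their medians, as was the third knockout-labelled CLP array by a little, and the other 8 arrays were below. Both differences of Trdn were thus in part required by the filter. Trdn was 1.22 ± 0.31 higher after sham (adjusted p = 0.028) and fell by 1.03 ± 0.31 after CLP (adjusted p = 0.025); 9 of 12 fits with an array left out kept each call, with adjusted p = 0.12 for the first without the third wild-type sham array and adjusted p = 0.10 for the second without the second knockout-labelled sham array.

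The hormone gene Nppa was called in no comparison. Nppa encodes atrial natriuretic peptide, which atrial muscle secretes when stretched. Nppa read 89.8, 157 and 71.4 on the wild-type sham arrays and 29.2, 170.2 and 111 after CLP. Nppa read 9.71, 130.2 and 134 on the knockout-labelled sham arrays and 19.9, 40.6 and 63.1 after CLP. The signals varied widely within every group. The groups overlapped in each of the 4 comparisons, although all knockout-labelled CLP arrays were below all wild-type sham arrays. Nppa differed by -0.74 ± 0.82 after sham (adjusted p = 0.65) and by -0.61 ± 0.82 after CLP (adjusted p = 0.61), with the widest standard error of the 32 genes. Corin, the protease that activates the peptide, was not tested. Corin read 4.04, 6.84 and 19.9 on the wild-type sham arrays and 1.85, 3.16 and 9.29 after CLP. Corin read 37.0, 46.3 and 39.7 on the knockout-labelled sham arrays and 13.8, 15.9 and 31.2 after CLP. The knockout-labelled sham arrays were the highest 3, but 10 of the 12 arrays lay under their median, so these are low signals with no fold change given.

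Energy genes of striated muscle completed the set. All 6 tested fell after CLP in the knockout-labelled lungs and all 6 were higher in the sham comparison, against 18.8% and 4.48% of all probe sets. Mb, the gene of myoglobin, the oxygen store of muscle, read 167, 158 and 213 on the wild-type sham arrays and 105, 184 and 165 after CLP. Mb read 501, 1164 and 618 on the knockout-labelled sham arrays and 176, 369.7 and 545 after CLP. Its sham arrays were above the wild type, but its CLP arrays ran from the wild-type range into the sham range. Mb was 1.98 ± 0.38 higher after sham (adjusted p = 0.0063) and fell by 1.11 ± 0.38 after CLP (adjusted p = 0.045), a fall called in only 4 of 12 fits with an array left out (adjusted p = 0.18 without the second sham array). Ckmt2, the mitochondrial creatine kinase of the sarcomere, read 94.5, 101 and 102 on the wild-type sham arrays and 74.3, 109 and 106 after CLP. Ckmt2 read 325, 470.2 and 261 on the knockout-labelled sham arrays and 91.7, 121 and 175 after CLP. For Ckmt2 the sham arrays were above all others. It was 1.75 ± 0.25 higher after sham (adjusted p = 6.9e-04) and fell by 1.43 ± 0.25 after CLP (adjusted p = 0.0015). Ckm, the cytosolic creatine kinase of muscle, read 108, 128 and 116 on the wild-type sham arrays and 90.9, 93.0 and 116 after CLP. Ckm read 280.3, 391 and 143 on the knockout-labelled sham arrays and 95.7, 118 and 172 after CLP. The third sham array was close to the wild type and below the highest CLP array. Ckm was 1.08 ± 0.30 higher after sham (adjusted p = 0.045) and fell by 0.98 ± 0.30 after CLP (adjusted p = 0.027). The first call was kept in 3 of 12 fits and the second in 8, and both were lost without the second sham array (adjusted p = 0.14 and adjusted p = 0.11) and when its probe sets were averaged.

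Cytochrome c oxidase has subunit forms made mainly in heart and muscle. Cox6a2 read 219.8, 199 and 197 on the wild-type sham arrays and 175, 166 and 243 after CLP. Cox6a2 read 411, 512 and 377 on the knockout-labelled sham arrays and 210.0, 333 and 288 after CLP. The sham arrays were above all others. Cox6a2 was 1.06 ± 0.19 higher after sham (adjusted p = 0.0038) and fell by 0.65 ± 0.19 after CLP (adjusted p = 0.021; adjusted p = 0.086 without the second sham array). Cox7a1 read 148, 159 and 155 on the wild-type sham arrays and 128, 153 and 168 after CLP. Cox7a1 read 197, 315 and 236 on the knockout-labelled sham arrays and 126, 158 and 194 after CLP. Its sham arrays exceeded the rest by little. Cox7a1 was 0.66 ± 0.19 higher after sham (adjusted p = 0.04998) and fell by 0.63 ± 0.19 after CLP (adjusted p = 0.025), calls kept in 3 and 9 of 12 fits and lost without the second sham array (adjusted p = 0.16 and adjusted p = 0.11). Cox8b read 177, 208 and 201 on the wild-type sham arrays and 211, 230.3 and 203 after CLP. Cox8b read 248, 414 and 263 on the knockout-labelled sham arrays and 143, 165 and 169 after CLP. The CLP arrays of the knockout-labelled group were below all other arrays, wild type included. Cox8b was 0.62 ± 0.17 higher after sham (adjusted p = 0.046), a call kept in 4 of 12 fits (adjusted p = 0.16 without the first wild-type sham array), and fell by 0.91 ± 0.17 after CLP (adjusted p = 0.0025).

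Among CLP lungs, 8 of the 32 genes were still higher in the knockout-labelled group, where 12.6% of all probe sets tested were higher, and 1, Myh7, was lower, where 16.9% were lower. The median difference was 0.44, against -0.05 over all probe sets. The 8 were Actc1 (1.55 ± 0.17, adjusted p = 7.0e-05), Smpx (1.45 ± 0.21, adjusted p = 4.5e-04), Hspb7 (1.38 ± 0.18, adjusted p = 2.3e-04), Csrp3 (1.09 ± 0.23, adjusted p = 0.0046), Mb (1.14 ± 0.38, adjusted p = 0.039), Tnnc1 (0.74 ± 0.22, adjusted p = 0.022), Sln (0.72 ± 0.22, adjusted p = 0.026) and Casq2 (0.64 ± 0.22, adjusted p = 0.047). Casq2 passed the filter only through knockout-labelled arrays, so its call was in part required by the filter. Actc1, Csrp3, Hspb7, Smpx and Myh7 were called in all 12 fits with an array left out, Tnnc1 and Sln in 8, and Mb and Casq2 in 4. For Tnnc1 the call was lost, for example, without the second wild-type CLP array (adjusted p = 0.087), for Sln without the first (adjusted p = 0.10), and for Mb and Casq2 without the third knockout-labelled CLP array (adjusted p = 0.15 and adjusted p = 0.16). The 3 CLP arrays of the 2 genotypes did not overlap for 10 genes with higher signals (20.6% of all probe sets) and for 3 with lower ones, Myh7, Cox8b and Fhl2 (26.5%). The count of 9 calls was 5 without the first wild-type CLP array or without the second or the third knockout-labelled CLP array, and 17 without the first knockout-labelled one. The atrial chain gene Myl7 differed by 0.04 ± 0.23 (adjusted p = 0.92).

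The test of the difference between the 2 responses, knockout-labelled minus wild-type, was called below 0 for 6 genes and above 0 for none, where 2.36% of all probe sets were called below 0 and 1.69% above, 4.05% in all. They were Ttn at -1.56 ± 0.38 (adjusted p = 0.041), Ckmt2 at -1.37 ± 0.35 (adjusted p = 0.047), Casq2 at -1.34 ± 0.31 (adjusted p = 0.037), Ldb3 at -1.32 ± 0.29 (adjusted p = 0.031), Cox8b at -1.04 ± 0.24 (adjusted p = 0.036) and Actc1 at -1.03 ± 0.24 (adjusted p = 0.036). All 32 genes had a value below 0, from -1.56 to -0.24 with a median of -0.85, against -0.07 over all probe sets, and 22 had an unadjusted p under 0.05. None of the 6 was called in every alternative fit, and centring each array on its median left 1 and moved the share of values above 0 among all calls of this test from 41.8% to 66.4%. The count was 0 without any single wild-type array, without the second knockout-labelled sham array or without the second knockout-labelled CLP array, and it was 12 without the third knockout-labelled CLP array, 11 without the third knockout-labelled sham array and 2 without the first sham array of that label.

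**Figure D3:**
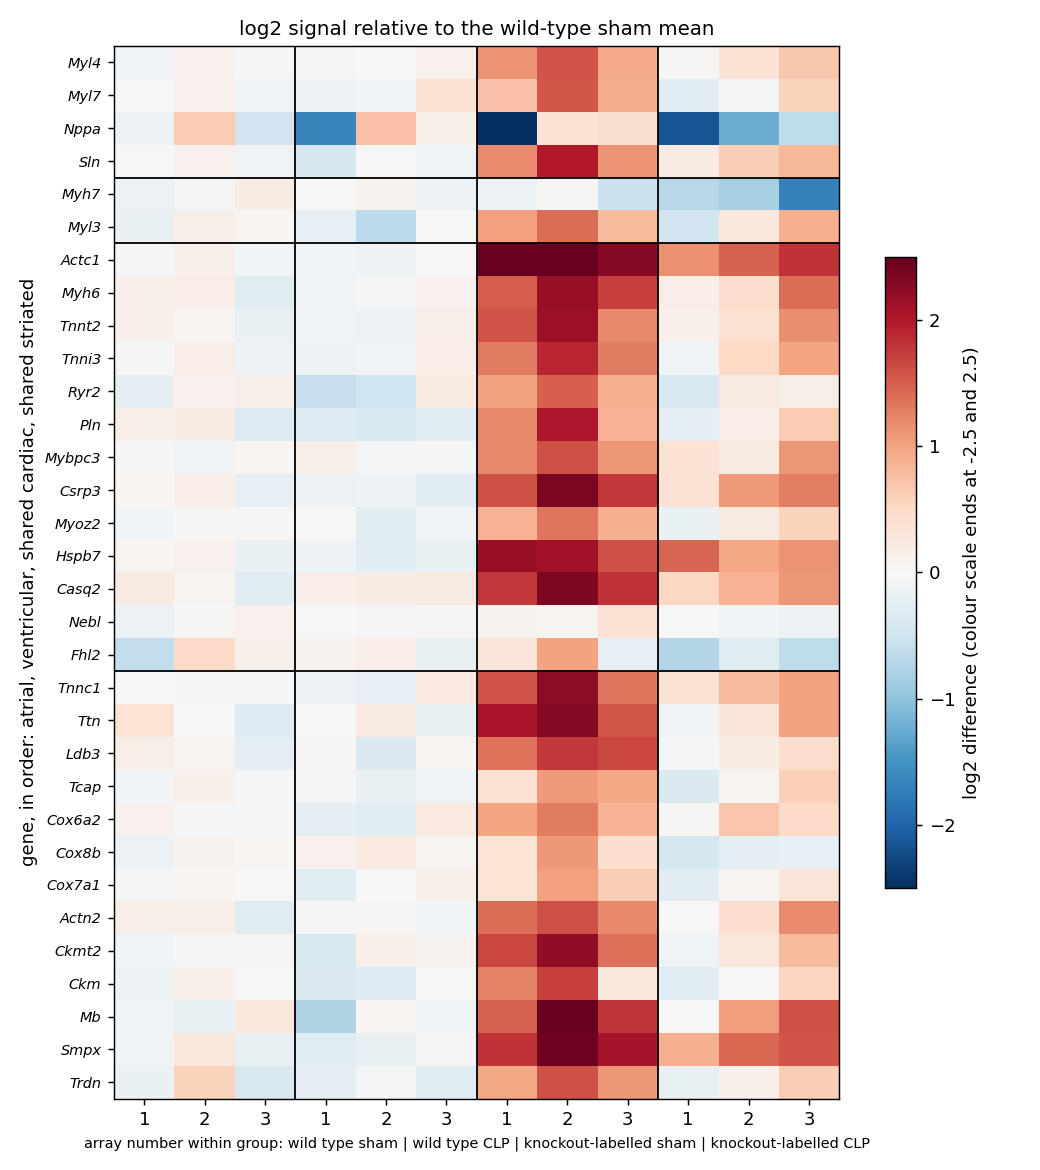
Log2 signal of each tested gene on each array minus the gene's mean over the 3 wild-type sham arrays, genes in rows by class and arrays in columns by group. Columns of the 2 wild-type groups are near 0, the knockout-labelled sham columns are mostly positive, with gene means of 1.05, 1.67 and 1.08, and the knockout-labelled CLP columns have means of -0.04, 0.33 and 0.66.

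The arrays within a group also differed together. Averaged over the 32 genes and set against the wild-type sham mean, the knockout-labelled sham arrays stood at 1.05, 1.67 and 1.08 on the log2 scale and the CLP arrays at -0.04, 0.33 and 0.66, while the 6 wild-type arrays ran from -0.19 to 0.12. The second sham array was the highest of its group for 29 of the 32 genes, as it was for 29.1% of all probe sets. In the CLP group the third array was highest for 26 genes (34.3% of all probe sets) and the first lowest for 28 (27.3%). The same single arrays were thus high or low for most of the genes. Averaged over the genes, the first of these CLP arrays was within the wild-type range and the third above it.

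As a description across the 12 arrays, the correlation of a gene with the mean of the other tested members was above 0.9 for 26 of the 32 genes, and below 0.5 for 4: Myh7 (-0.19), Nppa (-0.04), Nebl (0.41) and Fhl2 (0.42). The arrays share 4 group levels, which such a correlation includes. Of 11830 other genes, the 10 most alike to the mean of the members were Srl (0.994), Fabp3 (0.979), Hrc (0.970), Mybphl (0.954), Mapk10 (0.943), Eno3 (0.939), Sorbs2 (0.936), Hspb6 (0.931), Btbd10 (0.931) and Caps2 (0.929). After the group means were taken off, the correlations of Srl, Fabp3, Hrc and Mybphl were 0.967, 0.891, 0.860 and 0.869, and those of Btbd10 and Caps2 were 0.552 and 0.531. Srl encodes sarcalumenin and Hrc the histidine-rich calcium-binding protein, both calcium binders of the sarcoplasmic reticulum. Fabp3 is the fatty acid binding protein of heart and Mybphl a myosin-binding protein made mainly in the atrium.

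A second probe set was available for some members. Of 29 further probe sets from 15 genes, 13 from 8 genes passed the filter. In the knockout-labelled response 10 of the 13 gave the direction and call of the chosen probe set, and in the sham comparison 11 did. The second set of Cox6a2 was called in both comparisons too, as were both further sets of Pln and both of Ttn. Those of Myl3 differed: one was called only in the sham comparison and the other only after CLP. A further set of Hspb7 was not called after CLP (-1.02, adjusted p = 0.087). A further set of Nebl, called in neither comparison, had the opposite sign to the chosen set in both (0.21 after CLP and -0.36 after sham).

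Other genes of the same muscle were read from lists that do not overlap the members. Of 21 tested genes of other sarcomere parts, 4 were higher in the sham comparison and 0 lower, and 6 fell after CLP in the knockout-labelled lungs and 0 rose. These are 19.0% and 28.6% of the list, against 4.48% and 18.8% of all probe sets, so the share of falls was not far above the background. The median differences of the list were 0.34 and -0.44, against 0.01 and -0.12 over all probe sets. Mybphl read 41.8, 46.2 and 42.8 on the wild-type sham arrays and 42.1, 35.6 and 65.1 after CLP. Mybphl read 175, 260.2 and 167 on the knockout-labelled sham arrays and 60.5, 100.3 and 143 after CLP. The 3 knockout-labelled sham arrays were above all others. Mybphl was 2.09 ± 0.29 higher after sham (adjusted p = 6.1e-04) and fell by 1.01 ± 0.29 after CLP (adjusted p = 0.020). The slow troponin T gene Tnnt1 (2.55, adjusted p = 1.7e-04), Trim54 (1.99, adjusted p = 0.0035) and Itgb1bp2, the gene of melusin (1.14, adjusted p = 0.025), were the other 3. Trim54 was above the median on 3 arrays, 2 of them knockout-labelled sham arrays. It would not have passed the filter without that group, so its sham difference was in part required by the filter. Tnnt1 and Itgb1bp2 were above the median on the 6 knockout-labelled arrays alone, so their sham differences were in part required too. The 19.0% includes these 3 genes. The stretch-responsive gene Ankrd1 had the steepest fall after CLP (-1.62, adjusted p = 1.7e-04), and in wild-type lungs it differed by -0.88 (adjusted p = 0.052).

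Of 12 tested genes of heart rhythm and calcium, 2 (16.7%) were higher in the sham comparison, Srl (1.30, adjusted p = 8.2e-04) and Hrc (1.41, adjusted p = 0.0029). Both fell after CLP in the knockout-labelled lungs, by 1.01 (adjusted p = 0.0022) and 0.96 (adjusted p = 0.011), and no other gene of the list did. Of all probe sets, 4.48% were higher and 18.8% fell, so the share of falls was not above the background. The list medians were 0.03 and -0.04, against 0.01 and -0.12 over all probe sets. Gja1, the gene of connexin 43, which many lung cells make, was the 1 gene of this list that rose after CLP (0.98, adjusted p = 3.5e-04). The atrial connexin gene Gja5 and the potassium channel genes Kcnj3, Kcnj5 and Kcna5 were below the filter. Of 18 tested genes of fatty acid and glucose use in heart, 6 (33.3%) were higher in the sham comparison. After CLP 7 (38.9%) fell in the knockout-labelled lungs. Of all probe sets, 4.48% were higher and 18.8% fell. The medians of these 18 genes were 0.20 and -0.25, against 0.01 and -0.12 over all probe sets. Fabp3 was 1.24 higher (adjusted p = 0.0036) and fell by 0.996 (adjusted p = 0.0056), and the muscle enolase gene Eno3 was 0.91 higher (adjusted p = 0.0079) and fell by 1.04 (adjusted p = 0.0017). The muscle phosphoglycerate mutase gene Pgam2 was 1.30 higher (adjusted p = 0.0093), and Ppargc1a, the regulator of mitochondrial genes, fell by 1.08 after CLP (adjusted p = 0.024).

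Transcription factors of the heart could mostly not be read. Of 15 on the array 9 were below the filter, Nkx2-5, Gata4, Hand2, Irx4 and Shox2 among them. Of the 6 tested, 0 were called with limma in the sham comparison and 1 had an unadjusted p under 0.05. After CLP 1 (16.7%), Mef2c, fell in the knockout-labelled lungs (-1.65, adjusted p = 8.2e-04), against 18.8% of all probe sets. Mef2c is also made by endothelial and immune cells.

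Markers of other cells were set beside the result. The summed signal of the 10 smooth muscle genes was 5228 to 5391 on wild-type sham arrays, 5176 to 5360 after CLP, 5508 to 7112 on knockout-labelled sham arrays and 4412 to 4873 after CLP. Of them 1 (10%), Tpm2, was higher in the sham comparison (0.67, adjusted p = 0.0021), against 4.48% of all probe sets. After CLP 7 (70%) fell in the knockout-labelled lungs, against 18.8% of all probe sets. Mylk (-0.44, adjusted p = 0.0042) and Cnn1 (-0.82, adjusted p = 0.011) were among these 7. The summed signal of the 34 members was 7987 to 8737 on wild-type arrays after sham and 7540 to 8671 after CLP, and 17844 to 26808 on knockout-labelled arrays after sham and 8600 to 13835 after CLP. Like the sum of the members, the smooth muscle sum was higher in the knockout-labelled group after sham and lower in that group after CLP than after sham, by smaller factors. Among CLP lungs it was lower in the knockout-labelled group, where the sum of the members mostly was higher. Its part in the result was not tested.

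Fast skeletal muscle genes, 18 on the array, summed to 298 to 403 after sham in the wild type and to 226 to 325 after sham in the knockout-labelled group, so they were not higher where the members were. With limma 0 of the 4 tested were called in the sham comparison, and 0 had an unadjusted p under 0.05. Of the 6 mesothelial genes 0 were called in that comparison (0 with an unadjusted p under 0.05). After CLP 2 (33.3%) fell in the knockout-labelled lungs, against 18.8% of all probe sets. These were Lrrn4 (-1.58, adjusted p = 0.017) and Msln (-0.51, adjusted p = 0.029). The sum of the 6 mesothelial genes was 3685 to 4091 on wild-type sham arrays. On knockout-labelled arrays it was 3057 to 4429 after sham and 1920 to 3095 after CLP. Its part was not tested. Brown fat shares Cox7a1 and Cox8b with muscle. Its defining gene Ucp1 read 0.753 to 8.40 over the 12 arrays, under every array median. With limma 1 of its 4 tested genes (25%), Dio2, was higher in the sham comparison (1.19, adjusted p = 0.035), against 4.48% of all probe sets. An unadjusted p under 0.05 was found for 3 of the 4, and the list median was 0.54. Cidea differed by 0.73 (adjusted p = 0.053) and Adipoq by -0.80 (adjusted p = 0.070). The part of brown fat was not tested. Of 5 pericyte genes 2 (40%) were lower in the sham comparison, Cspg4 (-1.004, adjusted p = 0.0039) and Pdgfrb (-0.47, adjusted p = 0.016), against 3.86% of all probe sets. After CLP 1 pericyte gene (20%) fell in the knockout-labelled lungs, against 18.8% of all probe sets. Of 7 thymocyte genes, 6 were below the filter.

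**Figure D4:**
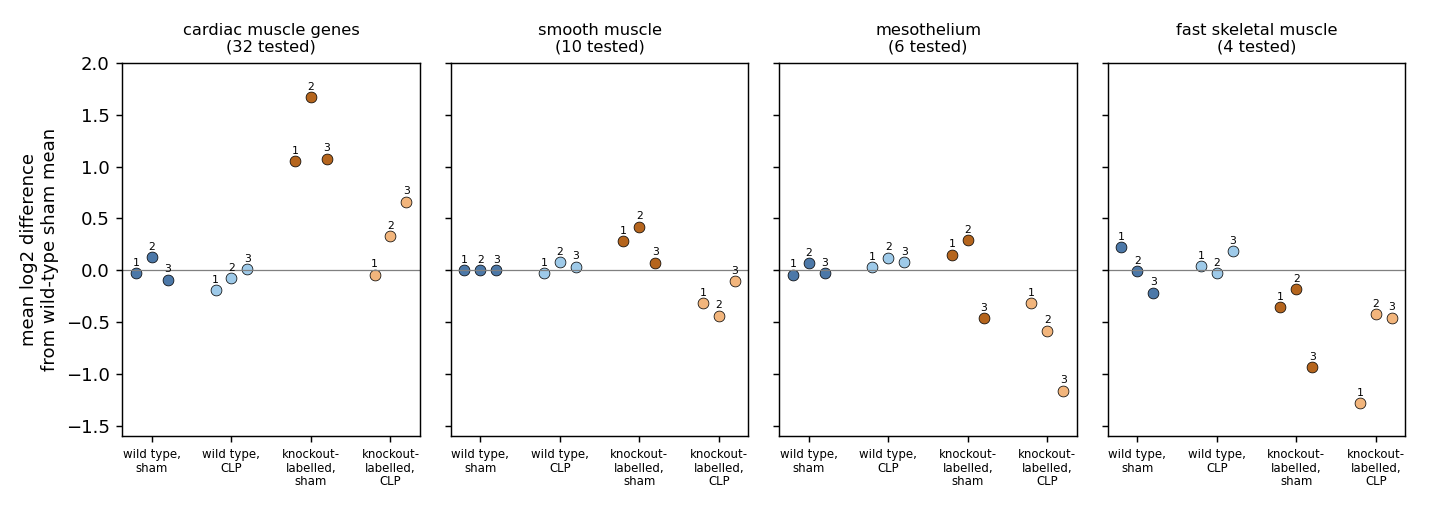
Mean log2 signal of the tested genes of each list on each array, relative to the mean of the 3 wild-type sham arrays, for the 32 cardiac genes, 10 smooth muscle, 6 mesothelial and 4 fast skeletal muscle genes, with the array number above each point. The cardiac genes reach 1.67 on the second knockout-labelled sham array, where the smooth muscle list reaches 0.42 and the fast skeletal list is at -0.18.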

How the data were processed

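Total RNA of mouse lung was labelled as biotinylated cRNA and hybridised to Affymetrix 3′ arrays, per the labels' protocols, and the submitters' processing notes list the Affymetrix Expression Console, MAS5 and GCOS without roles. The authors deposited 1 signal intensity per probe set, on a linear scale. Their mean without the 2% lowest and 2% highest was 150.001 on every array, so the authors' signals were scaled to 1 target; build and probe annotation version are not given in the sources used here. After 64 control probe sets were left out, log2(signal + 3.47), with a pseudocount of 10% of the median of the array medians (34.7), was fitted with limma 3.58.1 in R 4.3.3. The model had 4 group means and an intensity trend, and p-values were adjusted by Benjamini-Hochberg over 24574 probe sets in each of 5 contrasts. The pseudocount understates differences of dim genes. The number of arrays limits the precision. The code was tested on simulated data.

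The members, the other lists and the alternatives were chosen with earlier results of these data known. Alternatives were 11 other settings and 12 fits with 1 array left out. By the naming rule, every member is accounted for, with all arrays given for atrial, ventricular and called members; of other lists, up to 4 called genes with the smallest p per contrast, up to 2 not called and defining markers; and the 10 genes most alike to the members. Replicate numbers were not used as pairs in the main model. Residuals of same-numbered arrays correlated from -0.10 to 0.12, which cannot show whether such samples were handled together. Platform symbols were single for 34945 probe sets, several for 932 and none for 9160, and 34741 of the single ones matched the RefSeq table of GRCm38.p6. Promoter sequences come from RefSeq.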

Additional observations from a re-analysis of the deposited data

Results flagged for a closer look

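For 6 genes the response to CLP differed between the genotype labels by the test of the difference itself (limma, adjusted over all probe sets). Knockout-labelled minus wild type, the difference of the responses was -1.03 for Actc1, -1.56 for Ttn, -1.32 for Ldb3, -1.04 for Cox8b, -1.37 for Ckmt2 and -1.34 for Casq2. In each of these genes the wild-type arrays of both surgeries overlapped. Each value rests on 3 arrays a group. With an array left out, the call of Ldb3 and that of Cox8b was kept in 4 of 12 fits, and the calls of Actc1, Ttn, Ckmt2 and Casq2 in 3 each.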

How the results depend on the processing

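Over the 11 other settings and the 12 fits with an array left out, no difference of a called gene changed its sign. In wild-type lungs 0 genes were called in every fit. For the fall after CLP in knockout-labelled lungs, 29 calls became 19 with arrays centred on their medians and 9 with only the groups compared, and leaving out single arrays gave 18 to 29. The sham comparison gave 28 calls, and 20 to 28 with an array left out. The comparison of CLP lungs gave 9 calls, 15 with array weights and 5 to 17 with an array left out: 5 without array 1 of wild-type CLP or array 2 or 3 of knockout-labelled CLP, and 17 without array 1 of the latter. The difference of responses gave 6 calls, 1 with centred arrays, 0 without the filter (of 34 genes), 21 with array weights, 2 without the intensity trend and 0 to 12 with an array left out. The cause of these shifts was not tested. With the replicate number as a block, the counts were 0, 29, 27, 8 and 4 for the wild-type response, the knockout-labelled response, the sham comparison, the CLP comparison and the difference of responses. Of the calls, 7 of 29, 17 of 28, 5 of 9 and 0 of 6 held in every fit. Signals under the array median, as for Myl2 and Corin, carry no comparison.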
